A study of Mus musculus with 192 samples.

Results

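Solute carriers are membrane proteins that move amino acids, sugars, nucleosides, vitamins, metals and ions across the surface of a cell or across the membranes of its organelles. The genes described here are the 150 symbols of the form Slc, a family number, the letter a and a member number that had a count in at least 10% of the 181 cells with at least 100000 counts. They were drawn from 344 symbols of that form among the 49466 genes of the count table, after Slc4a1, Slc11a2, Slc25a37, Slc25a38, Slc40a1 and Slc48a1 had been left out by the rule. The members were chosen by detection on both plates together, a measured value, so that they have counts in these cells is no finding. The minimum was passed within the CFU-E plate by 138 of them and within the BFU-E plate by 144, with 6 passing on the CFU-E plate alone and 12 on the BFU-E plate alone. The same split was not made over all genes, so these counts describe the list and are not read as a trait of carriers. Slc37a2, Slc39a14 and Slc36a4 had a count in 18 cells each (9.94%) and fell just outside, while Slc18a1 with 19 cells (10.5%) and Slc52a3 and Slc7a11 with 21 each (11.6%) fell just inside. Families numbered with another letter, such as the later branches of family 35, do not have symbols of this form. In 4 members the symbol does not name a carrier: Slc4a1ap, Slc7a6os and the scaffold protein gene Slc9a3r1 are named after carriers, and Slc2a4rg-ps is a pseudogene. They were kept in all counts of members and form a class of their own, beside 12 classes by substrate.

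In red cell precursors, carriers of family 25 pass adenine nucleotides, phosphate, metabolites and iron through the inner mitochondrial membrane, where energy is made and heme synthesis begins and ends. Carriers of families 7, 38 and 43 bring in the amino acids from which hemoglobin is built, and members of families 30 and 39 move zinc and manganese out of and into the cytosol. Mature red cells keep a small set of carriers at high density, among them those for anions, glucose, nucleosides, urea and lactate, and some of these carry blood group antigens in humans.

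The cells came from the fetal liver of C57/Bl6J mice at embryonic day 14.5, after lysis of red cells, magnetic depletion of cells carrying lineage antigens, Sca-1, CD16/32 or CD41, and sorting with antibodies to CD117, CD71 and CD24. One 96-well plate held single CFU-E (colony-forming units-erythroid, committed precursors close to the first hemoglobin-making cells) and the other single BFU-E (burst-forming units-erythroid, the earlier precursors from which CFU-E arise); the study set these stages side by side. Neither the number of animals nor the sort gates are given in the sources used here, no mutation or treatment is given for either group, and each plate is 1 sample, so plate, sequencing lane and cell type cannot be told apart. Libraries were made by SmartSeq2, which covers whole transcripts and counts amplified reads.

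After cells under 100000 counts or 2000 genes were left out, 89 CFU-E cells (median 1005516 counts, range 131891 to 2992101) and 92 cells of the BFU-E plate (median 1120768.5, range 114288 to 3864040) remained. The BFU-E plate was not uniform: clustering without any Slc gene divided it into 39 cells, called cluster 2 here, and 53 erythroid-like cells, with Car1, Ermap, Epor, Kel and Klf1 among their top 10 genes by fold over the other cluster. The summed level of 18 granulocyte-monocyte markers per cell had a median of 5820 CPM in cluster 2 (range 150 to 18280), against 50 CPM in erythroid-like cells (0 to 780). In CFU-E cells that median was 0 CPM (0 to 270), with 11 of the 18 markers, Mpo and Elane among them, at 0. The 22 erythroid markers summed to a median of 12610 CPM in CFU-E cells (200 to 35640), 350 CPM in cluster 2 (0 to 2600, with Cldn13, Sphk1 and Icam4 among those at 0) and 3810 CPM in erythroid-like cells (1420 to 6570). Megakaryocyte markers had medians of 20 CPM in CFU-E cells (0 to 150, with 5 of 9 at 0), 80 CPM in cluster 2 (0 to 800, with 4 of 9 at 0) and 300 CPM in erythroid-like cells (0 to 2970, with 3 of 9 at 0). Stem and multipotent progenitor markers had medians of 60 CPM in CFU-E cells (0 to 800, with Hlf at 0 among 10), 2920 CPM in cluster 2 (580 to 4820, with none at 0) and 1020 CPM in erythroid-like cells (190 to 3250, with Mecom at 0). The part of these cell mixtures in the differences below was not tested. CFU-E cells were compared with the whole plate and with its erythroid-like cells, but not with cluster 2 alone. Among the 89 CFU-E cells, 3 carried at least 3 lymphoid markers, and the 2 plates shared 95 index pairs. Lymphoid markers had medians of 0 CPM in CFU-E cells (0 to 3060), 130 CPM in cluster 2 (0 to 1430) and 0 CPM in erythroid-like cells (0 to 160). Hepatocyte markers had medians of 110 CPM (0 to 1590), 160 CPM (0 to 540) and 140 CPM (0 to 2710) in the same groups. The part of either in the levels below was not tested.

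Levels are given as CPM, the counts of a gene scaled to a total of 1000000, from counts summed over a group after each cell was thinned to 100000 counts, so 1 count in 1 cell is 10 CPM in that cell. Ranges in brackets after a group's level, share or fold are exact 95% intervals, which cover counting error alone. Those of levels and folds treat reads as independent, but the reads were amplified and carry no molecular identifiers. The error in counting molecules can therefore be larger, and the spread between cells is not covered. Ranges beside a median over cells run from the lowest to the highest cell. No p-value can be given with 1 plate per cell type. A member was measured in a comparison when its mean over the 2 groups reached 5 CPM, and it was called higher or lower past a 2-fold difference. CPM is a share of each cell's counts, so a second scaling was set beside it. Factors from a trimmed mean of M values (TMM) shifted the log2 ratio of CPM by 0.59 for CFU-E over erythroid-like cells, 0.58 for CFU-E over the whole BFU-E plate and -0.02 within the BFU-E plate. On the log2(CPM + 1) scale, the folds of the named members moved by 0.29 to 0.59 and by 0.28 to 0.58 in the comparisons with CFU-E cells. Counts of members called are given under both scalings.

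Some members lay far apart between CFU-E and erythroid-like BFU-E cells in either direction. The zinc and manganese importer Slc39a8, the sulfate exchanger Slc26a1 and the manganese exporter Slc30a10 were 84.9-fold, 55.9-fold and 24.9-fold higher in CFU-E cells. The nucleoside carrier Slc29a1, the leucine carrier Slc43a1 and the nucleobase carrier Slc43a3 were 4.74-fold, 3.29-fold and 3.56-fold higher. Slc46a3 and Slc25a21 had larger folds than these carriers, and Slc6a9 and Slc22a4 like ones, all given below. The monoamine carrier Slc22a3 and the sugar carrier Slc45a3 had no count in any CFU-E cell. Both passed the detection minimum through the BFU-E plate alone, so the direction of their difference is no separate finding. The same holds for every other member that passed through a single plate, on either side. Of 127 members measured, 14 were called higher and 39 lower in CFU-E cells, which is 11% and 30.7%, beside 6.23% and 31.2% of all 9103 genes measured in the same way. The median log2 fold was -0.27 over the members and -0.54 over all genes. With TMM scaling 39 of 125 members were called higher (31.2%, beside 15.7% of all genes) and 28 lower (22.4%, beside 15.3%), and the medians were 0.32 and 0.06. The share of members called higher thus lay above that of all genes under both scalings. The share called lower lay at that of all genes by CPM and above it with TMM.

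Against the whole BFU-E plate, 21 of 129 members were called higher and 42 lower in CFU-E cells by CPM (16.3% and 32.6%, beside 6.61% and 33.6% of 9363 genes), with medians of -0.40 and -0.57. TMM scaling gave 34 higher and 31 lower of 128 (26.6% and 24.2%, beside 15.7% and 18.6%), with medians of 0.16 and 0.01. With median-of-ratios factors, 34 were called higher and 31 lower against the plate (17.1% and 17.6% of all genes), 39 and 26 against erythroid-like cells (17% and 14.4%), and 18 and 15 in cluster 2 against erythroid-like cells (12.2% and 9.7%). The comparisons with the plate and with its erythroid-like cells share all CFU-E cells and those 53 BFU-E cells.

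**Figure D1:**
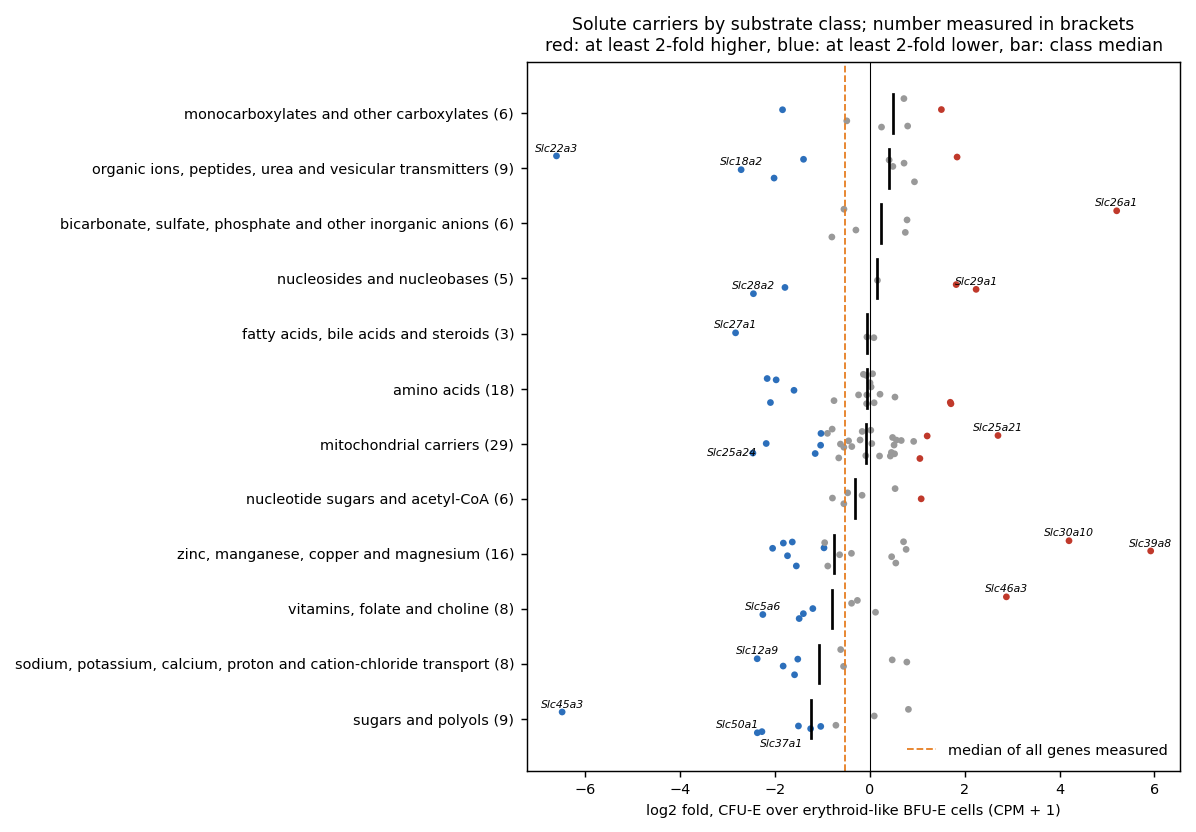
Log2 fold of each measured member in CFU-E over erythroid-like BFU-E cells (horizontal axis, log2 of CPM + 1), by substrate class (vertical axis, number measured in brackets); each point is a member, red if at least 2-fold higher, blue if at least 2-fold lower, the black bar is the class median and the dashed line the median of all genes. Slc39a8, Slc26a1 and Slc30a10 stand alone on the right and Slc22a3 and Slc45a3 on the left, while 6 of 9 sugar carriers lie at or past 2-fold lower, beside 31.2% of all genes.

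By length, the most abundant members in every group were a pair of mitochondrial carriers. Slc25a5, the ADP/ATP translocase, had 1395 CPM per kb of exon in CFU-E cells, 718 in cluster 2 and 736 in erythroid-like cells. Slc25a3, the phosphate carrier that supplies ATP synthase, followed with 346, 216 and 219 CPM per kb. Next came Slc29a1 in CFU-E cells (211 CPM per kb). In cluster 2 and erythroid-like cells it was Slc25a4, the other ADP/ATP translocase of the list (130 and 108 CPM per kb). The leading pair was thus shared by all groups, and the next member by the BFU-E groups alone.

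Slc25a5 (ENSMUSG00000016319; chromosome X, 36795651 to 36798807, plus strand) had lowest 990, median 2230 and highest 5230 CPM in CFU-E cells, against lowest 370, median 1250 and highest 2430 CPM in erythroid-like cells. The groups overlapped, though the median CFU-E cell lay close to the highest erythroid-like cell. The summed levels were 2296 CPM (2264 to 2327) and 1211 CPM (1182 to 1241), a 1.90-fold (1.84 to 1.95) difference that was short of the 2-fold call by CPM and past it with TMM. Slc25a3 (ENSMUSG00000061904; chromosome 10, 91116574 to 91124059, minus strand) had lowest 780, median 1870 and highest 3250 CPM in CFU-E cells, against lowest 290, median 1220 and highest 1930 CPM in erythroid-like cells. It was 1.58-fold (1.54 to 1.63) higher at 1920.2 against 1215 CPM, again called with TMM but not by CPM. In the other direction, Slc25a4 (ENSMUSG00000031633; chromosome 8, 46206797 to 46211284, minus strand) stood at 122 CPM (115 to 129.96) in CFU-E cells and 253 CPM (239.7 to 267) in erythroid-like cells, 2.07-fold (1.91 to 2.24) lower by CPM, a call that TMM scaling removed. Near-identical processed copies of Slc25a5 and Slc25a3 could take or add reads, and how such reads were counted is not given in the sources used here.

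Together Slc25a3 and Slc25a5 held 35.4% of all member counts in CFU-E cells (4216 CPM), 24.1% in cluster 2 (2381 CPM) and 25.7% in erythroid-like cells (2426 CPM). All 150 members together summed to 11905 CPM in CFU-E cells, 9872 CPM in cluster 2 and 9445 CPM in erythroid-like cells. Per cell, that sum had lowest, median and highest values of 7960, 12080 and 14860 CPM in CFU-E cells, 7520, 9880 and 12920 CPM in cluster 2, and 3400, 9370 and 12020 CPM in erythroid-like cells. The median CFU-E cell lay above the highest erythroid-like cell, and the groups overlapped below that. Without the leading pair, the sums were 7689, 7491 and 7018 CPM in CFU-E cells, cluster 2 and erythroid-like cells. A CFU-E cell had a count of 72 members in the median (lowest 54, highest 92). A cluster 2 cell had 66 (lowest 43, highest 88) and an erythroid-like cell 69 (lowest 39, highest 87).

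A few carriers were seen in every cell of a group. In CFU-E cells these were 9 members: Slc25a5, Slc25a3, Slc29a1, Slc43a1, Slc43a3, Slc20a1, Slc3a2, Slc38a10 and Slc35a4. In cluster 2 they were Slc25a5, Slc25a3 and Slc25a4, and in erythroid-like cells Slc25a5 and Slc25a3. Members at or above 100 CPM numbered 27 in CFU-E cells, 24 in cluster 2 and 22 in erythroid-like cells, and members at or under 5 CPM numbered 40, 27 and 22.

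**Figure D2:**
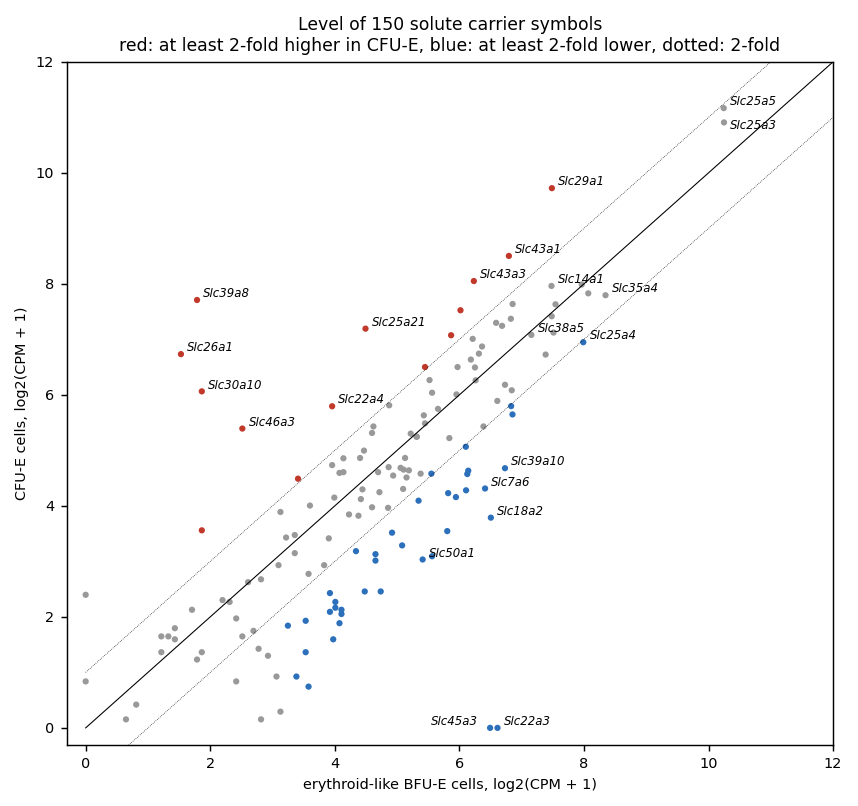
Level of all 150 members in CFU-E cells (vertical axis) against erythroid-like BFU-E cells (horizontal axis), both in log2(CPM + 1); each point is a member, the solid line marks equal levels and the dotted lines a 2-fold difference, with members called higher in CFU-E cells in red and lower in blue. Slc25a5 and Slc25a3 lie far from the rest at the top right, and Slc22a3 and Slc45a3 lie on the bottom axis at 0 in CFU-E cells.

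**Figure D3:**
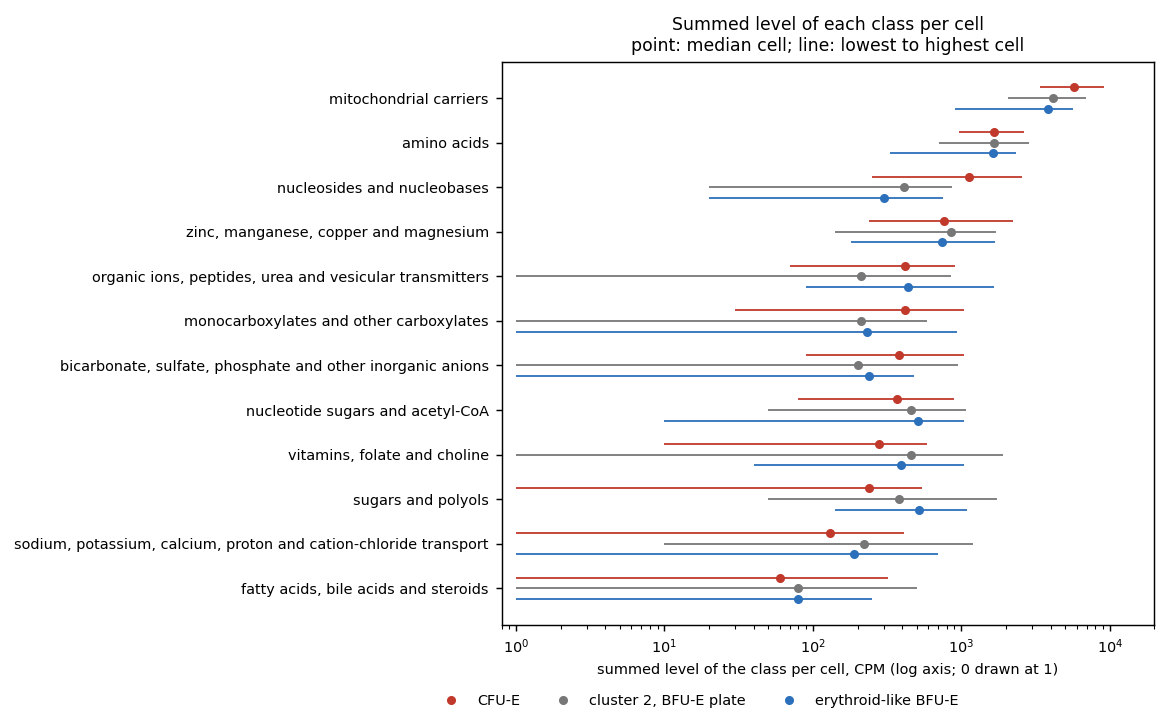
Summed level per cell of the members of each substrate class (horizontal axis, CPM, log scale with 0 drawn at 1) in CFU-E cells, cluster 2 of the BFU-E plate and erythroid-like BFU-E cells; points are medians over cells and lines run from the lowest to the highest cell. Mitochondrial carriers lead in all groups, at medians of 5770, 4180 and 3850 CPM, and nucleoside and nucleobase carriers show the widest gap between groups on this axis, at 1130, 410 and 300 CPM.

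Metal carriers held the largest fold among members higher in CFU-E cells. Slc39a8 (ENSMUSG00000053897; chromosome 3, 135825279 to 135888572, plus strand), or ZIP8, imports zinc and manganese and had lowest 0, median 120 and highest 930 CPM in CFU-E cells, against lowest 0, median 0 and highest 30 CPM in cluster 2 and lowest 0, median 0 and highest 50 CPM in erythroid-like cells. The groups overlapped at or below 50 CPM and nowhere above it. Summed levels were 208 CPM (199 to 218) in CFU-E cells, 0.769 CPM (0.159 to 2.25) in cluster 2 and 2.45 CPM (1.31 to 4.19) in erythroid-like cells, and CFU-E cells were 84.9-fold (49.5 to 159.7) higher than erythroid-like cells. A count was present in 89.9% (81.7 to 95.3) of CFU-E cells and 7.55% (2.09 to 18.2) of erythroid-like cells. With all counts of each cell in place of thinned ones, 100% of CFU-E cells and 14.1% of BFU-E-plate cells had one.

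Slc30a10 (ENSMUSG00000026614; chromosome 1, 185454848 to 185468762, plus strand), which carries manganese out of the cell, showed the same contrast at a lower level. It had lowest 0, median 60 and highest 250 CPM in CFU-E cells, no count in cluster 2, and lowest 0, median 0 and highest 70 CPM in erythroid-like cells. It was present in 80.9% of CFU-E cells and in 4 of 53 erythroid-like cells, and its summed level was 65.8 CPM (60.6 to 71.4) against 2.64 CPM (1.44 to 4.43), 24.9-fold (14.7 to 45.9) higher in CFU-E cells. The noncoding gene Gm2061 on the other strand overlaps 9.13% of its exon bases, and the library preparation does not mark strand.

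Slc26a1 (ENSMUSG00000046959; chromosome 5, 108669878 to 108675569, minus strand), a sulfate and oxalate exchanger, completed the trio. It had lowest 0, median 70 and highest 710 CPM in CFU-E cells, against lowest 0, median 0 and highest 30 CPM in cluster 2 and lowest 0, median 0 and highest 50 CPM in erythroid-like cells. Its level was 105 CPM (98.8 to 112) in CFU-E cells and 1.89 CPM (0.905 to 3.47) in erythroid-like cells, 55.9-fold (30.2 to 117) higher, with a count in 84.3% of CFU-E cells. Exons of Idua, within which the gene lies on the other strand, overlap 3.48% of its exon bases. Cell by cell, all 3 genes were detected in 59 of 89 CFU-E cells, and the 1 CFU-E cell that had none of them was among the 3 with lymphoid markers. On the BFU-E plate 10 of 92 cells had a count of at least 1 of the trio and 4 had at least 2. After thinning, Slc26a1 had a count in 5 and Slc30a10 in 4 of these 92 cells. Either may thus have passed the detection minimum through the CFU-E plate alone. In that case the direction of its difference would be no separate finding.

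The bases before the start sites of Slc39a8 and Slc30a10 are shown because both genes were higher in CFU-E cells, with those of Slc18a2, a gene lower in CFU-E cells, as a counterpart. Sequences are from RefSeq (GRCm38.p6), run 5′ to 3′ toward the start, and stop at the nearest annotated exon. Capitals mark a GATA-type motif (AGATAA and AGATAG and also TGATAA and TGATAG, on either strand) or a CACCC-type motif (CCNCNCCC on either strand), which do not overlap here, letters read by erythroid factors such as Gata1 and Klf1.
Slc39a8, second start, chr3:135825532-135825653, plus strand: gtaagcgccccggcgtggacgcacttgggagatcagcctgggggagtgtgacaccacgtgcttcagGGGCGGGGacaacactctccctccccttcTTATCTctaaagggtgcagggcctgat
Slc30a10, chr1:185454598-185454847, plus strand: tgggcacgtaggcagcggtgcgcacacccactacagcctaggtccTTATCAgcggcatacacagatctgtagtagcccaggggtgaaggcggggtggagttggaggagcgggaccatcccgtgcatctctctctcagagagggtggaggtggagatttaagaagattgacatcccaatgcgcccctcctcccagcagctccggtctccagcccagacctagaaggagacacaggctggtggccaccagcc
Slc18a2, chr19:59260628-59260877, plus strand: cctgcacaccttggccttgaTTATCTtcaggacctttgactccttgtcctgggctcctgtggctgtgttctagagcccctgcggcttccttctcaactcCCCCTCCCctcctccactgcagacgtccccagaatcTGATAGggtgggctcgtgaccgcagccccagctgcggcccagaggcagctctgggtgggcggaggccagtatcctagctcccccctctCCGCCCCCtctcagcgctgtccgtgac
The Slc39a8 stretch holds a GATA-type motif 30 bases and a CACCC-type motif 59 bases before the start, and 250 bases before its other start hold neither. In Slc30a10 the GATA-type motif lies 205 bases before the start. Slc18a2 has such motifs at 230 and 115 bases and CACCC-type motifs at 151 and 27 bases. Slc26a1 has GATA-type motifs 177 and 53 bases before 1 of its starts, in bases that lie inside an exon of another transcript and are not printed. Over windows from 250 bases before to 50 after a start, a GATA-type motif was present in 29.8% of 32851 promoters, 18.99% of 158 promoters of 116 members, 25% of 20 promoters of the 12 members highest in CFU-E cells (10 matched) and 27.8% of 18 promoters of the 12 lowest. CACCC-type motifs were in 49.5%, 76.6%, 65% and 66.7% of the same sets. These are matches of letters, and no binding was measured.

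The 6 metal carriers called lower in CFU-E cells were led by Slc39a10. This zinc importer, also ZIP10, had lowest 0, median 0 and highest 250 CPM in CFU-E cells, against lowest 0, median 60 and highest 420 CPM in erythroid-like cells. The groups overlapped, and 48.3% of CFU-E cells had a count, against 77.4% of erythroid-like cells. Its level was 24.6 CPM (21.5 to 28.1) against 105 CPM (96.7 to 114), 4.28-fold (3.65 to 5.03) lower in CFU-E cells. Slc39a11, Slc39a1, Slc30a7, Slc30a6 and the magnesium carrier Slc41a1 were 3.69-fold, 3.41-fold, 3.02-fold, 2.0003-fold and 3.95-fold lower, and of these Slc30a6 was not called with TMM. Slc41a3, a magnesium carrier, was at 156 CPM in CFU-E cells, 9.49 CPM in cluster 2 and 95.3 CPM in erythroid-like cells. The copper importer Slc31a1 was at 164 and 112 CPM in CFU-E and erythroid-like cells, and the zinc exporter Slc30a1 at 2.13 and 4.72 CPM, too low to be measured. Slc39a6 was at 22.4 against 29.6 CPM, 1.32-fold lower and uncalled, but 2.43-fold lower at 12.2 CPM once the lymphoid-marker cells were left out (86 CFU-E cells). Of 16 metal carriers measured among 19, CPM called 2 higher and 6 lower in CFU-E cells, and TMM scaling 6 higher and 5 lower. All genes had 6.23% higher and 31.2% lower by CPM, and 15.7% and 15.3% with TMM.

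Nucleoside and nucleobase carriers had the largest ratio of summed levels among the classes, 1135 CPM in CFU-E cells, against 415 CPM in cluster 2 and 309 CPM in erythroid-like cells, and 2 genes held most of it. Slc29a1 (ENSMUSG00000023942; chromosome 17, 45585200 to 45599606, minus strand), or ENT1, is the equilibrative nucleoside carrier of the red cell surface. It had lowest 40, median 840 and highest 1840 CPM in CFU-E cells, against lowest 0, median 130 and highest 380 CPM in cluster 2 and lowest 0, median 150 and highest 580 CPM in erythroid-like cells. The median CFU-E cell thus lay above every cell of the BFU-E plate, with overlap at the low end. Summed levels were 844 CPM (825 to 864), 155 CPM (143 to 168) and 178 CPM (167 to 189.8), and the fold over erythroid-like cells was 4.74-fold (4.43 to 5.08). Slc43a3, which carries purine nucleobases, had lowest 20, median 230 and highest 710 CPM in CFU-E cells, against lowest 0, median 30 and highest 400 CPM in erythroid-like cells, with overlap. It was 3.56-fold (3.20 to 3.97) higher at 264 against 74.2 CPM. The remaining members were low in CFU-E cells: Slc29a2, a second equilibrative carrier, was 3.75-fold (2.85 to 4.96) lower at 8.76 against 32.8 CPM, the sodium-driven Slc28a2 was at 0.899 against 9.43 CPM, with no count left once the lymphoid-marker CFU-E cells were set aside, and the lysosomal Slc29a3 at 16.7 against 14.9 CPM. Of the 5 measured, 2 were called higher and 2 lower by CPM, and 2 higher and 1 lower of 4 with TMM. Shares over all genes were 6.23% higher and 31.2% lower by CPM, and 15.7% and 15.3% with TMM.

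**Figure D4:**
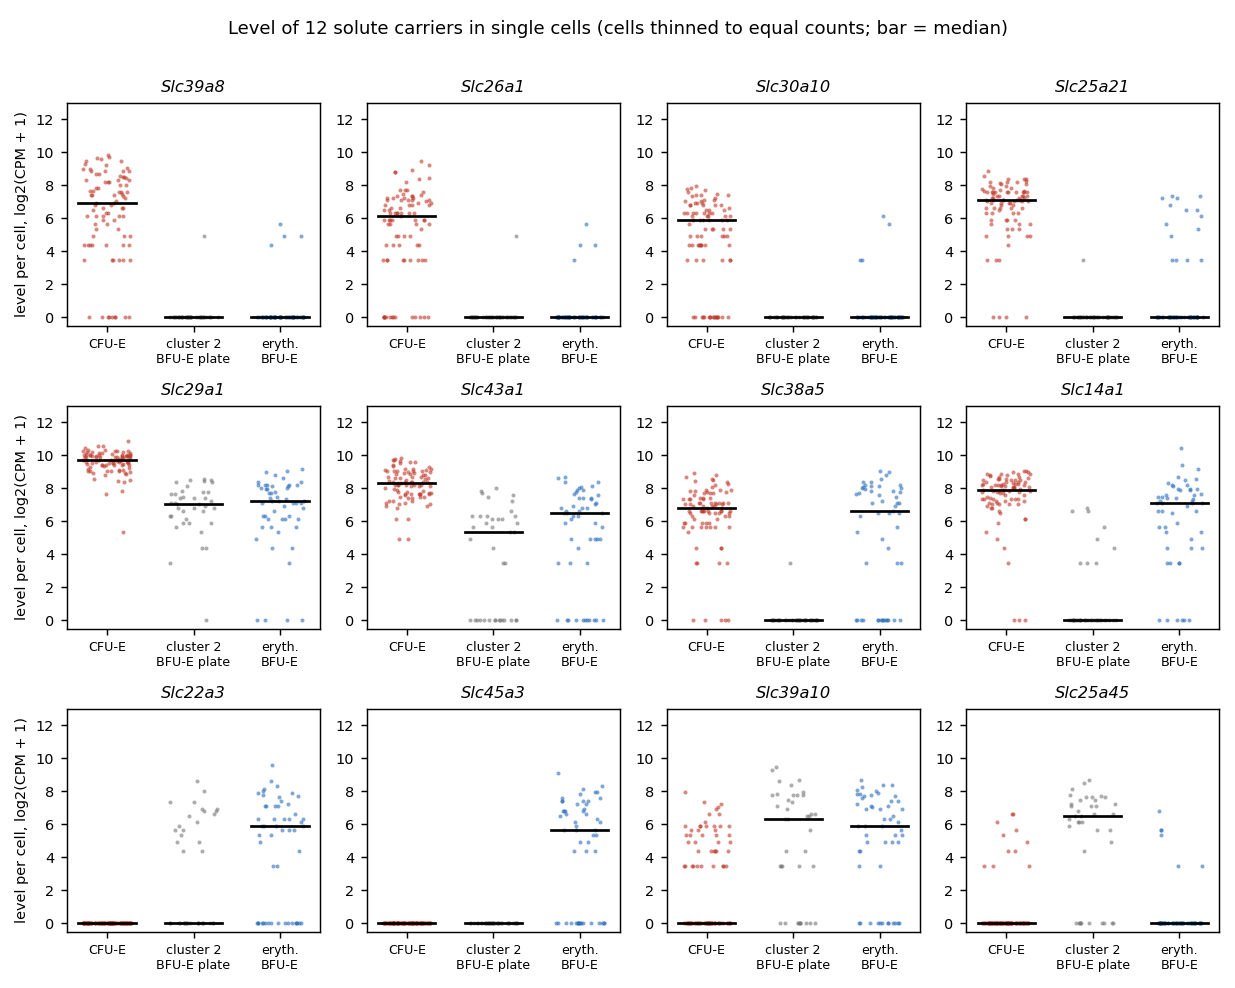
Level of 12 members in single cells (vertical axis, log2 of CPM + 1, cells thinned to equal counts) in CFU-E cells, cluster 2 of the BFU-E plate and erythroid-like BFU-E cells; each point is a cell and each bar a median. Slc39a8, Slc26a1 and Slc30a10 are present in most CFU-E cells and few others, Slc38a5 and Slc14a1 are present in both erythroid groups and nearly absent from cluster 2, and Slc22a3 and Slc45a3 are at 0 in all CFU-E cells.

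Mitochondrial carriers beyond the leading pair differed in both directions. Slc25a21 (ENSMUSG00000035472; chromosome 12, 56712634 to 57197472, minus strand) carries oxodicarboxylates from the breakdown of lysine and tryptophan and had lowest 0, median 140 and highest 470 CPM in CFU-E cells, against lowest 0, median 0 and highest 10 CPM in cluster 2 and lowest 0, median 0 and highest 160 CPM in erythroid-like cells. It was detected in 95.5% of CFU-E cells, 1 of 39 cluster 2 cells and 28.3% of erythroid-like cells, so that erythroid-like cells without a count formed the majority. The level was 145 CPM (137 to 153) against 21.5 CPM (17.7 to 25.8) in erythroid-like cells, 6.75-fold (5.57 to 8.25) higher. Slc25a46, an outer membrane protein of mitochondrial shape, and Slc25a32, the mitochondrial folate or FAD carrier, were 2.33-fold (2.05 to 2.65) and 2.10-fold (1.81 to 2.45) higher, close to the threshold. Slc25a24, the ATP-magnesium and phosphate carrier, was 6.14-fold (4.67 to 8.17) lower at 7.53 against 46.2 CPM, and Slc25a53 was 5.88-fold (3.70 to 9.68) lower.

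Several mitochondrial members with known cargo lay within 2-fold by CPM. The mitochondrial NAD carrier Slc25a51 was at 150.4 CPM in CFU-E and 101.9 CPM in erythroid-like cells, the citrate carrier Slc25a1 at 98.4 and 71.7 CPM, the glutathione carrier Slc25a39 at 106 and 78.5 CPM, and the acylcarnitine carrier Slc25a20 at 24.2 and 33.4 CPM. With TMM, Slc25a51, Slc25a1 and Slc25a39 were called higher and Slc25a20 was not. Slc25a40, a relative of Slc25a39, was at 14.7 and 23.2 CPM. Slc25a28 (mitoferrin 2), the iron carrier that remains in the list, was near the floor at 2.13 and 1.32 CPM. Of 29 measured among 35 mitochondrial carriers, 3 were called higher and 5 lower by CPM, while TMM scaling called 11 higher and 2 lower. Beside them, CPM called 6.23% of all genes higher and 31.2% lower, and TMM 15.7% and 15.3%.

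Amino acid carriers as a class had nearly equal sums, 1677 CPM in CFU-E cells, 1774 CPM in cluster 2 and 1591 CPM in erythroid-like cells, yet single members differed. Slc43a1 (ENSMUSG00000027075; chromosome 2, 84838850 to 84863594, plus strand), or LAT3, takes up leucine and related amino acids without sodium. It had lowest 30, median 320 and highest 920 CPM in CFU-E cells, against lowest 0, median 40 and highest 260 CPM in cluster 2 and lowest 0, median 90 and highest 410 CPM in erythroid-like cells, and the groups overlapped. Levels were 362 CPM (349 to 374), 56.9 CPM (49.7 to 64.9) and 110 CPM (101 to 119), 3.29-fold (3.01 to 3.60) higher than in erythroid-like cells. Its relative Slc43a2 (LAT4) was low in CFU-E cells at 1.57 CPM, against 10.6 CPM in erythroid-like cells, 6.72-fold (3.69 to 13.1) lower, and at 0.814 CPM without the lymphoid-marker cells (12.98-fold lower). Slc7a6 (y+LAT2), which exchanges cationic for neutral amino acids, was 4.46-fold (3.73 to 5.36) lower at 18.9 against 84.2 CPM, with a count in 49.4% and 84.9% of cells. Slc6a9, the glycine carrier, was 4.08-fold (2.32 to 7.75) higher at 10.8 against 2.64 CPM, but Ccdc24 overlaps 27.8% of its exon bases.

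Several well-known amino acid carriers lay within 2-fold by CPM. Slc3a2, the heavy chain shared by several exchangers, was at 226 CPM (217 to 236) in CFU-E and 268 CPM (254 to 282) in erythroid-like cells. Its light chain partner Slc7a5 (LAT1) was at 9.78 and 8.30 CPM, the arginine carrier Slc7a1 at 63.4 and 60.9 CPM, and the glutamine carriers Slc1a5, Slc38a1 and Slc38a2 at 75.7, 253 and 169.8 CPM in CFU-E cells, against 75.7, 249 and 178 CPM. The neutral amino acid carrier Slc1a4 was at 30.9 and 21.1 CPM, and the cystine carrier Slc7a11, too low to be measured, at 0.337 and 0.755 CPM. Slc38a5, a sodium-coupled carrier of glutamine, glycine and serine, was level between the erythroid groups at 134 CPM (127 to 142) and 142 CPM (132 to 152). It had a count in 94.4% of CFU-E cells and 71.7% of erythroid-like cells, and 11 of the 53 erythroid-like cells held at least 50% of its counts there, against 21 of 89 CFU-E cells. Of 18 amino acid carriers measured among 22, 2 were called higher and 4 lower by CPM, and 3 higher and 4 lower with TMM. For all genes the shares were 6.23% and 31.2% by CPM, and 15.7% and 15.3% with TMM.

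Sugar carriers were the class with the lowest median, a log2 fold of -1.25 in CFU-E over erythroid-like cells (-0.68 with TMM). Slc45a3 (ENSMUSG00000026435; chromosome 1, 131962967 to 131982969, plus strand), a proton-coupled sugar carrier, was the extreme. It was not detected in 89 CFU-E cells, where the exact interval allows up to 4.06% of cells with a count, nor in cluster 2, and had lowest 0, median 50 and highest 550 CPM in erythroid-like cells. There it was present in 67.9% (53.7 to 80.1) of cells at 89.1 CPM (81.2 to 97.5), so that CFU-E cells were at least 264-fold lower when set to 3 counts over the group, the floor used here. Exons of Gm29103 overlap 13.5% of its exon bases. Its count stayed at 0 in CFU-E cells when all counts were used, so it passed the detection minimum through the BFU-E plate alone. The glucose carriers Slc2a1 (GLUT1) and Slc2a3 (GLUT3) were 2.09-fold (1.78 to 2.44) and 1.66-fold (1.46 to 1.88) lower by CPM, at 32.5 against 67.7 CPM and 58.3 against 96.6 CPM. Only Slc2a1 was called, and not with TMM. Slc50a1 (SWEET1) and the glucose 6-phosphate exchanger Slc37a1 were 5.77-fold (4.35 to 7.75) and 5.71-fold (3.99 to 8.34) lower, and the myo-inositol carrier Slc5a3 was 2.92-fold (2.46 to 3.48) lower, not called with TMM. In the other direction the intracellular hexose carrier Slc2a8 (GLUT8) was at 42.1 CPM in CFU-E cells, 1.54 CPM in cluster 2 and 23.6 CPM in erythroid-like cells, called higher with TMM only. The endoplasmic reticulum glucose 6-phosphate carrier Slc37a4 was at 52.7 against 49.4 CPM. CPM called 0 of 9 measured higher and 6 lower, and TMM 1 higher and 3 lower. Among all genes, 6.23% were called higher and 31.2% lower by CPM, and 15.7% and 15.3% with TMM.

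Carboxylate and inorganic anion carriers had medians above 0, log2 folds of 0.48 and 0.22 (1.06 and 0.80 with TMM). So did organic ion carriers and nucleoside and nucleobase carriers, at 0.40 and 0.16 (0.95 and 1.56 with TMM). Slc16a6, of the monocarboxylate family, was 2.87-fold (2.55 to 3.24) higher at 183 against 63.8 CPM, although Amz2 overlaps 21.5% of its exon bases. The lactate exporter Slc16a3 (MCT4) had 128 CPM in CFU-E cells, 18.5 CPM in cluster 2 and 73.2 CPM in erythroid-like cells, and Slc16a1 (MCT1), the lactate carrier of red cells, had 89.1, 80.5 and 75.1 CPM. The phosphate importer Slc20a1 was at 198 CPM (189 to 207) in CFU-E cells and 115 CPM (106 to 124) in erythroid-like cells. The difference of 1.73-fold (1.57 to 1.90) was called with TMM only. Slc16a10, a carrier of aromatic amino acids, was at 38.8 against 23.2 CPM. CPM called 1 of 6 carboxylate carriers higher and 1 lower, and 1 of 6 anion carriers (Slc26a1) higher and 0 lower, while TMM called 3 higher and 1 lower and 3 higher and 0 lower. The shares of all genes were 6.23% higher and 31.2% lower by CPM, and 15.7% and 15.3% with TMM.

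Organic ion carriers differed in both directions. Slc22a3 (ENSMUSG00000023828; chromosome 17, 12418960 to 12507704, minus strand), or OCT3, takes up monoamines and other organic cations. It was not detected in CFU-E cells with thinned or with all counts, and so passed the detection minimum through the BFU-E plate alone. It had lowest 0, median 0 and highest 400 CPM in cluster 2 and lowest 0, median 60 and highest 770 CPM in erythroid-like cells. It was present in 48.7% of cluster 2 cells and 67.9% of erythroid-like cells at 51.3 and 96.8 CPM, and CFU-E cells were at least 287-fold lower than erythroid-like cells, from the same floor. Slc18a2 (ENSMUSG00000025094; chromosome 19, 59260896 to 59296012, plus strand), or VMAT2, which loads monoamines into vesicles, had lowest 0, median 0 and highest 100 CPM in CFU-E cells, against lowest 0, median 0 and highest 430 CPM in cluster 2 and lowest 0, median 20 and highest 1000 CPM in erythroid-like cells. It was 7.01-fold (5.70 to 8.68) lower at 12.8 against 89.8 CPM, and 5 of the 53 erythroid-like cells held at least 50% of its counts. Mast cell and basophil markers, of which 2 of 9 had a count in CFU-E cells and 3 in erythroid-like cells, summed to 0 to 70 CPM and 0 to 410 CPM per cell, with medians of 0. Their part in the levels of Slc22a3, Slc18a2 and Slc45a3 was not tested.

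Higher in the same class was Slc22a4 (OCTN1), the ergothioneine carrier, which had lowest 0, median 30 and highest 260 CPM in CFU-E cells, against lowest 0, median 0 and highest 130 CPM in erythroid-like cells. It was present in 79.8% and 20.8% of those cells and 3.75-fold (2.94 to 4.83) higher at 54.5 against 14.5 CPM. Slc14a1 (UT-B), the urea carrier that bears the Kidd blood group in humans, was at 248 CPM (238 to 259) in CFU-E cells, 11.3 CPM (8.20 to 15.1) in cluster 2 and 177 CPM (166 to 189) in erythroid-like cells. It was present in 96.6% of CFU-E cells and 88.7% of erythroid-like cells and 1.40-fold (1.30 to 1.51) higher, called with TMM only. The vesicular nucleotide carrier Slc17a9 was at 4.49 against 21.3 CPM, 4.74-fold lower, and at 0.814 CPM (26.2-fold lower) with the lymphoid-marker cells left out. CPM called 1 of 9 organic ion carriers measured higher and 4 lower, and TMM 5 higher and 3 lower. Over all genes these shares were 6.23% and 31.2% by CPM, and 15.7% and 15.3% with TMM.

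Carriers that set cell volume and pH had 4 of 8 measured members called lower in CFU-E cells by CPM. The sodium-potassium-chloride importer Slc12a2 (NKCC1) was 3.12-fold (2.31 to 4.24) lower at 7.75 against 24.2 CPM, Slc12a9 was 7.28-fold (4.32 to 12.9) lower, and the potassium-chloride exporter Slc12a7 was 4.34-fold lower. Slc12a7 was 7.61-fold lower without the lymphoid-marker cells. Its relative Slc12a4 (KCC1) was at 25.6 against 14.5 CPM, and the sodium-proton exchanger Slc9a8 had 36.3 CPM in CFU-E cells, against 56.2 CPM in erythroid-like cells. CPM called 0 of the 8 higher, and TMM 2 higher and 4 lower. Genes as a whole had 6.23% higher and 31.2% lower by CPM, and 15.7% and 15.3% with TMM.

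Among vitamin carriers, Slc5a6, which imports biotin and pantothenate, was 5.14-fold (4.07 to 6.55) lower at 10.7 against 54.9 CPM, and the ascorbate carrier Slc23a2 was 3.23-fold (2.17 to 4.88) lower. Slc19a1, the reduced folate carrier, lay within 2-fold at 138 and 181 CPM. Slc46a3, a lysosomal member, was 8.69-fold (5.80 to 13.6) higher at 41.01 against 4.72 CPM, and present in 62.9% of CFU-E and 7.55% of erythroid-like cells. Of 8 vitamin carriers measured, 1 was called higher and 4 lower by CPM, and 1 higher and 3 lower with TMM. The fatty acid carrier Slc27a1 had a count in 1 CFU-E cell, which was among the 3 with lymphoid markers, and in 12 erythroid-like cells, while Slc10a7 and Slc10a3 lay within 2-fold. In the class that carries nucleotide sugars into the Golgi, the UDP-galactose carrier Slc35a2 was 2.23-fold (1.63 to 3.10) higher at 21.5 against 9.62 CPM, and Slc35a4 was the most abundant per length at 67.5 and 99.0 CPM per kb. That class had 1 of 6 called higher and 0 lower by CPM, and 2 higher and 0 lower with TMM. Of the 4 symbols that name no carrier, 2 were called lower and 0 higher under both scalings. Beside these classes, 6.23% of all genes were called higher and 31.2% lower by CPM, and 15.7% and 15.3% with TMM.

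**Figure D5:**
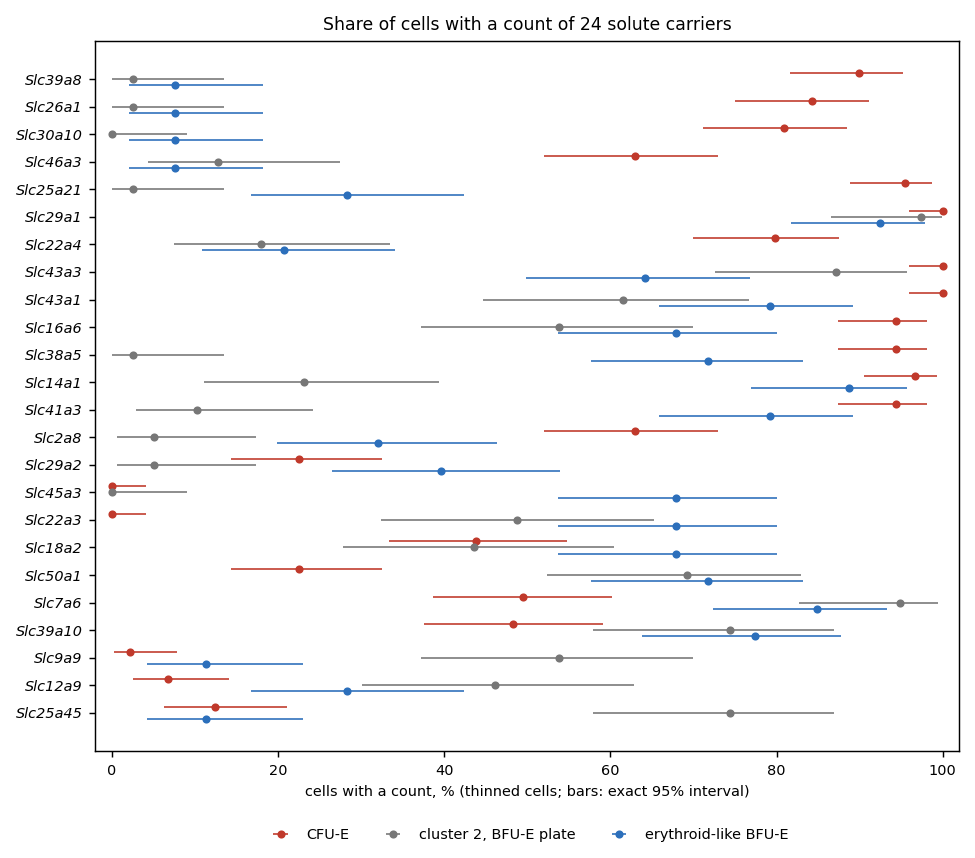
Share of thinned cells with a count (horizontal axis, percent, with exact 95% intervals) for 24 members in CFU-E cells, cluster 2 of the BFU-E plate and erythroid-like BFU-E cells. The first members listed are detected in most CFU-E cells and few others, Slc38a5, Slc14a1 and Slc41a3 in most cells of both erythroid groups, and Slc25a45, Slc9a9 and Slc12a9 most often in cluster 2.

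Within the BFU-E plate, cluster 2 and erythroid-like cells had like sums of carriers and differed in single members. Of 131 members measured, 18 were higher and 15 lower in cluster 2 (13.7% and 11.5%, beside 12.7% and 9.19% of 9682 genes), with medians of 0.04 and -0.01, and TMM scaling gave the same counts, beside 12.5% and 9.39%. Lower in cluster 2 were Slc38a5 and Slc45a3: a single count of Slc38a5 was found there, against 38 erythroid-like cells with a count, a level 552-fold (98.8 to 21827) lower, and Slc45a3 was at least 116-fold lower. Slc14a1 was 15.7-fold (11.6 to 21.8) lower at 11.3 against 177 CPM, Slc41a3 10.04-fold (7.19 to 14.4) lower, Slc2a8 15.3-fold (6.85 to 42.6) lower and Slc29a2 18.3-fold (8.69 to 46.2) lower. Slc25a21 also had a single count there, 83.9-fold (14.8 to 3342) lower, and Slc16a3 was 3.97-fold (3.08 to 5.17) lower.

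Higher in cluster 2 was Slc25a45 (ENSMUSG00000024818; chromosome 19, 5877808 to 5885878, plus strand), a member of the mitochondrial family. It had lowest 0, median 90 and highest 420 CPM in cluster 2, against lowest 0, median 0 and highest 110 CPM in erythroid-like cells, and was present in 74.4% (57.9 to 86.96) and 11.3% (4.27 to 23.03) of them. Its level of 107 against 5.09 CPM was 20.9-fold (14.2 to 32.2) higher, and CFU-E cells had 5.17 CPM. The endosomal sodium-proton exchanger Slc9a9 was 7.91-fold (5.61 to 11.4) higher at 58.2 against 7.36 CPM, with 3 of the 39 cells holding at least 50% of its counts. Slc29a3 was 6.49-fold (5.08 to 8.37) higher, Slc12a9 4.74-fold (3.67 to 6.18), the zinc importer Slc39a6 4.27-fold (3.56 to 5.14) and the aspartate-glutamate carrier Slc25a12 4.005-fold (3.46 to 4.65). Slc28a2 and Slc43a2 were 3.81-fold (2.74 to 5.37) and 3.64-fold (2.66 to 5.04) higher. Slc18a1 (VMAT1) was at 30.3 against 0.566 CPM, but 2 of its 7 positive cells held at least 50% of the counts.

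Members that differ between the clusters gave different folds against the plate and against its erythroid-like cells. Slc25a45 was 9.32-fold lower in CFU-E cells than on the whole plate, at 5.17 against 48.2 CPM, and level with erythroid-like cells. Slc9a9 was 32.2-fold lower than the plate, at 0.899 against 28.9 CPM, and too low to be measured beside erythroid-like cells. Slc29a3 was 2.96-fold lower than the plate, at 16.7 against 49.6 CPM, a call that TMM removed, and 16.7 against 14.9 CPM beside erythroid-like cells. In the opposite sense, Slc14a1, Slc41a3, Slc16a3, Slc2a8 and Slc20a1 were called higher by CPM against the plate, at 2.32-fold, 2.65-fold, 2.56-fold, 2.96-fold and 2.07-fold, and lay at 1.40-fold, 1.64-fold, 1.75-fold, 1.79-fold and 1.73-fold beside erythroid-like cells. Slc39a8, Slc26a1, Slc30a10, Slc25a21, Slc29a1, Slc43a1, Slc43a3, Slc22a4, Slc46a3, Slc16a6, Slc6a9, Slc25a46 and Slc25a32 were called higher against both, under both scalings.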

How the data were processed

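The authors deposited raw counts for each gene. The submitters' processing notes name STAR 2.4, featureCounts without a version, and GRCm38; the handling of strand and of multimapping reads is unstated. Of 192 cells, 191 were matched to a column by name, 1 is not analysed here, and 1 further column matched no label. A minimum of 100000 counts and 2000 genes removed 6 CFU-E and 4 BFU-E cells. The others were thinned to 100000 counts (seed 1) and summed, since read depth varied from cell to cell; no doublet caller was run on singly sorted cells. Log2 folds use log2(CPM + 1). Annotation was GENCODE M21 (GRCm38). TMM factors came from edgeR 4.0.16, the rest from Python 3.11.15, numpy 2.4.6, pandas 2.3.3, scipy 1.17.1 and scikit-learn 1.9.0. The BFU-E plate was clustered by Ward's method on 10 components of 1000 variable genes (silhouette 0.322). The second cluster has no granulocyte-monocyte marker among its top 10 genes, so the planned name was dropped. The code was tested on simulated data.

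Members, substrate classes, markers and lists were chosen with earlier results of these data known. Named genes were the 12 highest and 12 lowest members by log2 fold against the whole plate and 8 and 8 in the other comparisons (at least 20 CPM and 25% of cells in the higher group), class leaders per kb or by fold, a panel of 43, those next to the detection minimum and the 3 most abundant of each related list. Other members named were chosen after their values were seen, as was the class of symbols that name no carrier. Some named genes are not reported here. Alternatives covered scaling, thinning, cell filter, level minimum, interval calls, lymphoid-marker cells, pseudocount and clustering genes.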

Additional observations from a re-analysis of the deposited data

How the results depend on the processing

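The choice of scaling changed the balance of calls most. With TMM the members called higher in CFU-E cells numbered 34 in place of 21 against the whole plate, and 39 in place of 14 against erythroid-like cells, and the median log2 folds were 0.16 in place of -0.40 and 0.32 in place of -0.27. Median-of-ratios factors gave 34 and 39 higher and medians of 0.22 and 0.37. A mean level of at least 20 CPM left 21 members lower in place of 42 (whole plate), 20 in place of 39 (erythroid-like cells) and 8 in place of 15 (cluster 2 against erythroid-like cells), and no minimum gave 23 lower in the last comparison. The minimum also changes how many members are measured. Shares called, of members or of all genes, were not computed at these minima. The cell filter, thinning, lymphoid-marker cells, counting interval and number of clustering genes left every count within 1.5 times its value, and no sign of a median changed under them. The median within the plate was -0.02 in place of 0.04 with no minimum. The log2 folds of single named members numbered 200, and TMM moved the 65 within the BFU-E plate by -0.017 to -0.008. Median TMM shifts were 0.56 against the whole plate and 0.57 against erythroid-like cells. Of all 200, TMM left 98 within their counting interval and median-of-ratios factors 93. A pseudocount of 0.1 CPM moved 16 beyond it, leaving out lymphoid-marker cells 5, no thinning 1 and clusters from 2000 variable genes 1. No called fold changed sign. The 2 other scalings shifted folds by at most 0.59 and 0.64, too little to reverse a 2-fold call. A pseudocount cannot reverse a fold, and the level minimum and the counting interval leave folds unchanged. Kept signs are thus no check of the calls under these settings. The number of members was 173 at a detection of 5% of cells and 129 at 25%. No paired analysis was possible because each cell type is 1 plate and cell numbers only name wells. With 1 plate each, differences between animals, plates and lanes have no estimate, and members under about 5 CPM rest on few counts.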

Other observations

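Transport genes with other names were counted from lists chosen with results of these data known. Of 31 solute carriers under other symbols in the table, 23 were measured in CFU-E against erythroid-like cells, with 2 higher and 6 lower by CPM and 5 higher and 4 lower with TMM. In all genes measured, 6.23% were higher and 31.2% lower by CPM, and 15.7% and 15.3% with TMM. Rhag, the ammonia or gas channel of the Rh complex, was at 629.8 CPM (613 to 646) in CFU-E cells, 0 CPM (0 to 0.946) in cluster 2 and 37.9 CPM (32.9 to 43.5) in erythroid-like cells, 16.6-fold (14.4 to 19.2) higher than the last. Pqlc1, a PQ-loop protein, was 3.62-fold (3.19 to 4.12) higher at 189.9 against 52.5 CPM. Mfsd2b, the sphingosine 1-phosphate exporter of red cells and platelets, was 2.31-fold (2.1995 to 2.42) lower at 317 against 733 CPM, a call that TMM scaling removed, and Sfxn1, the mitochondrial serine carrier, was at 425 and 272 CPM.

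The monocarboxylate carriers need a partner protein to reach the surface. Bsg (basigin) was at 398 CPM in CFU-E cells, 174 CPM in cluster 2 and 199.6 CPM in erythroid-like cells, while Emb (embigin) was at 12.7, 1035 and 4.91 CPM. Of 19 ABC transporters measured, 4 were higher and 5 lower in CFU-E than in erythroid-like cells by CPM, and 6 higher and 5 lower with TMM. The same shares over all genes were 6.23% and 31.2% by CPM, and 15.7% and 15.3% with TMM. Abcb10 of the mitochondrial inner membrane was 5.46-fold (4.70 to 6.37) higher, Abcg2, an exporter of porphyrins and drugs, 2.37-fold (2.16 to 2.60) higher, and the sterol exporter Abcg1 35.4-fold (23.9 to 54.7) lower. The calcium pump Atp2a3 was at 4.38 CPM in CFU-E cells, 101 CPM in cluster 2 and 133 CPM in erythroid-like cells. The metal-binding protein gene Mt1 was at 141, 14.6 and 206 CPM.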
